A study of Mus musculus with 29 samples.

Results

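The TAM receptors are the receptor tyrosine kinases Tyro3, Axl and Mertk, and their known ligands are the secreted proteins Gas6 and Pros1. Transcripts of these 5 genes and of Megf10, an engulfment receptor outside the family, were followed in a mouse melanoma line exposed to interferon gamma (IFNγ) and transforming growth factor beta (TGFβ) in sequence. The genes were chosen by symbol, and all 6 were found among the 28229 genes of the count table. Of the 6, 5 passed the filter on low counts that left 14935 genes for testing, and Gas6 did not.

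TAM receptors do not bind dying cells directly. Gas6 and Pros1 bridge them: a vitamin K dependent carboxylated domain of the ligand holds phosphatidylserine on the target cell, while its other end binds the receptor. Gas6 binds all the TAM receptors, and Pros1 binds Tyro3 and Mertk. Besides driving engulfment, the receptors restrain innate immune responses in macrophages and dendritic cells. Axl is also known in human melanoma as a marker of cells with a low-MITF, undifferentiated state. Megf10 belongs to the family of CED-1 of worms and Draper of flies, and is known for engulfment by astrocytes and for its part in muscle satellite cells.

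The cells were NMM, a mouse melanoma line with mutant NRAS, grown in medium with 10% fetal calf serum, and each library was made from mRNA of 1 condition. A first stimulus lasted 2, 6, 12 or 24 h, 5 washes with PBS followed, and a second stimulus then lasted 24 h in every library. IFNγ was given at 100 ng/ml and TGFβ at 10 ng/ml. The 29 libraries comprised TGFβ then IFNγ, IFNγ then TGFβ, medium then IFNγ, medium then TGFβ, TGFβ then medium, IFNγ then medium, and medium in both periods as the untreated group, each with 4 libraries, 1 for each length of the first period. A single library received medium for 24 h and then a mix of both cytokines. No other replicates are labelled, so libraries of 1 sequence that differ in this length were treated as its replicates. Nothing in the labels says that they came from separate cultures, and p-values then measure only the spread between these samples, some of which may be technical. A group that received a cytokine first and medium second is called a pulse here, since its RNA was collected 24 h after the cytokine was washed off.

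Library totals ran from 17179530 to 23668015 counts. Levels are given as TMM-scaled CPM, a gene's counts relative to the size of its library, and per kilobase of exon only where genes are set against each other. Of the melanocyte markers, Mitf had 8.4 to 20.2 CPM, while Sox10 had at most 3 counts and Pmel at most 9 counts in any library. No values were found under the symbols Mlana, Tyr, Tyrp1 and Dct, so these markers were not analysed. Sox9, Sox2, Fosl1 and Egfr, known from undifferentiated melanoma, were all expressed, between 9.44 and 241 CPM, while Ngfr and Wnt5a of the same list were near 0, at 0 to 0.982 CPM and 0.0507 to 1.02 CPM. The defining leukocyte markers Ptprc and Csf1r had at most 3 counts per library. The medium library with a first period of 6 h stood apart: its log2 values differed from the mean of the other medium libraries by an SD over genes of 0.596, against 0.32 to 0.361 for the other 3. Its summed level of 5 fibroblast markers was 1940 CPM, against 577 to 663 CPM in the other medium libraries. Results that rest on it are given with and without it, and the comparisons with untreated medium all share these 4 libraries.

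Axl was by far the main TAM receptor of these cells and barely varied. Its median level per kilobase of exon was 239 CPM, against 3.83 CPM for Tyro3 and 2.54 CPM for Mertk. It ranked 55 of the 14935 genes by mean CPM, and it made up 96.9% to 98.2% of the summed per-kilobase level of the 3 receptors. Mertk supplied 0.222% to 1.64% of that sum and Tyro3 1.17% to 2.06%. The spread of each gene over all 29 libraries can be put as the highest over the lowest CPM, which was 1.33 for Axl, 1.43 for Tyro3, 2.2 for Pros1, 8.22 for Mertk and 27.3 for Megf10. The plot of levels by library shows this contrast between the steady receptors and the variable Mertk and Megf10.

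**Figure D1:**
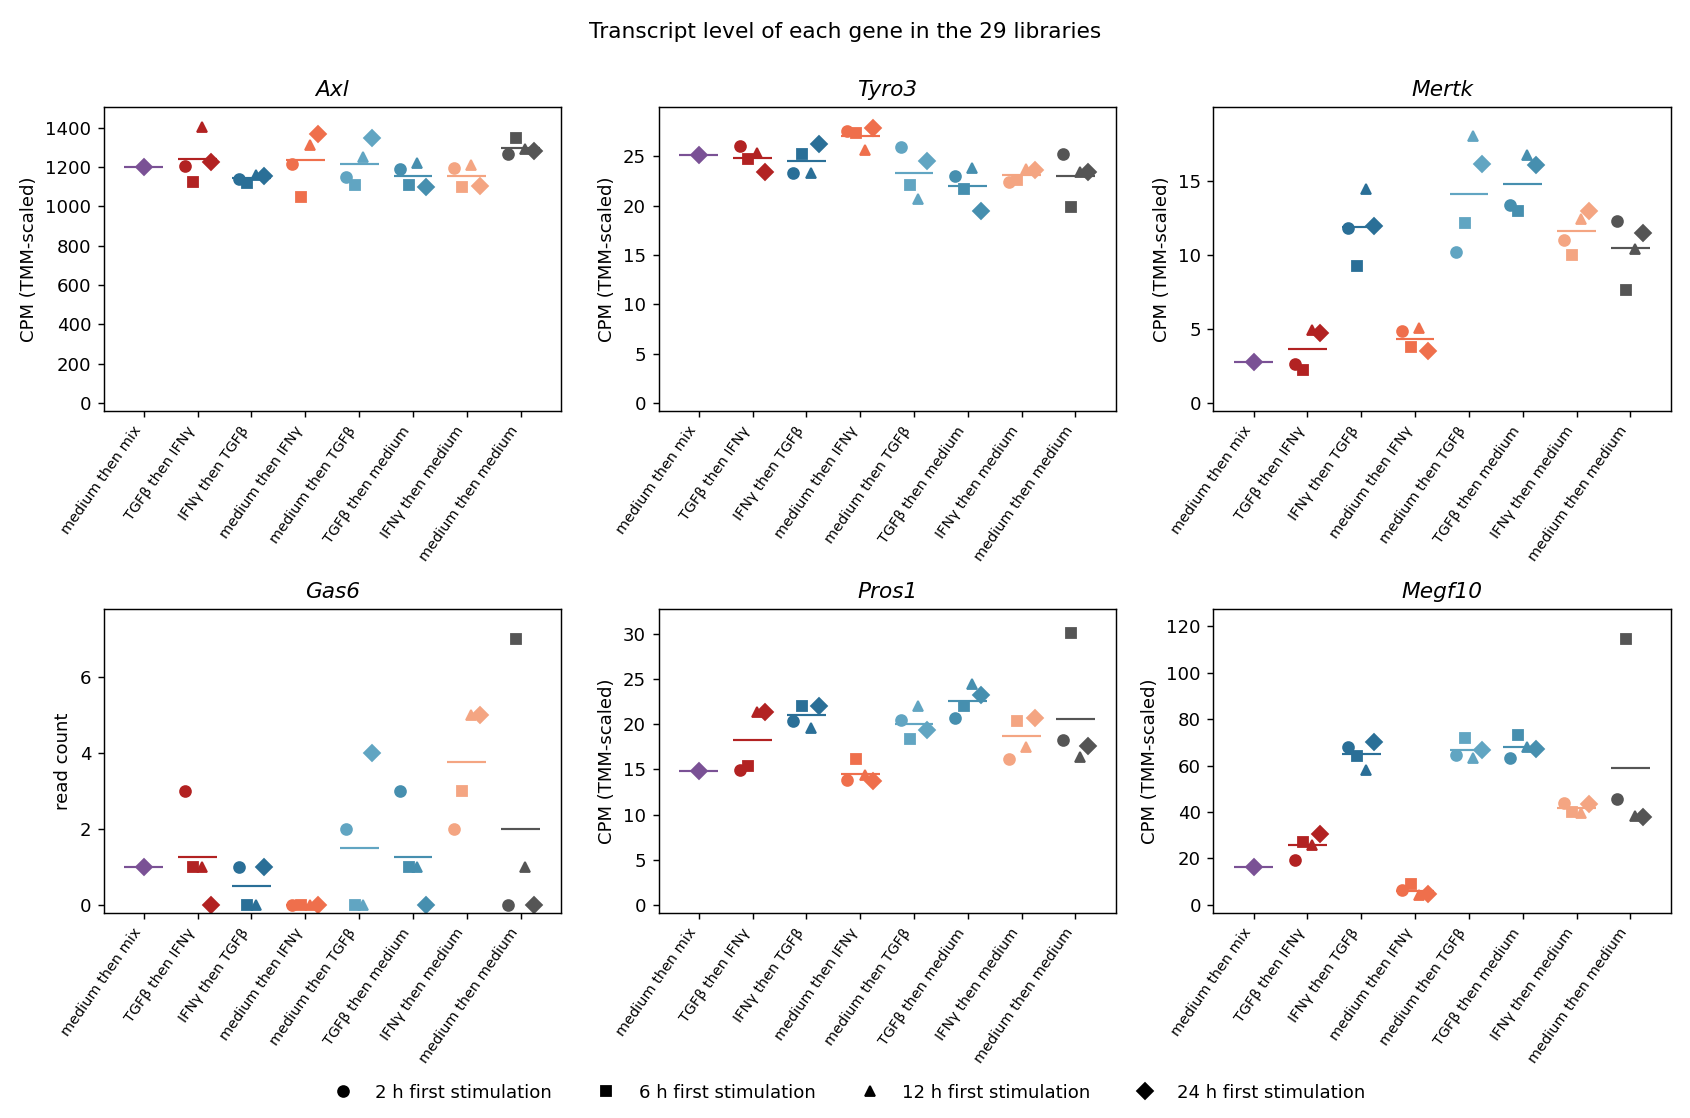
Level of each gene in all 29 libraries, in TMM-scaled CPM on the vertical axis (read counts for Gas6), by sequence of stimuli on the horizontal axis; a point is 1 library, its shape gives the length of the first period and a bar marks the group mean. Mertk lies between 2.19 and 5.07 CPM in all libraries given IFNγ second and between 7.63 and 18.0 CPM in all libraries without it in the second period; Megf10 is lowest after medium then IFNγ, at 4.21 to 8.79 CPM.

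Axl (chr7:25757273-25788705, minus strand, GRCm38) encodes the receptor with the highest affinity for Gas6. In cells given medium then IFNγ it had 1214, 1050, 1315 and 1368 CPM after first periods of 2, 6, 12 and 24 h, against 1269, 1350, 1291 and 1284 CPM in medium alone. The groups overlapped, and the log2 fold change was -0.08 with a 95% interval of -0.201 to 0.048 (edgeR's quasi-likelihood test, p adjusted by Benjamini-Hochberg over all genes tested, adjusted p = 0.328). A TGFβ pulse left 1190, 1111, 1220 and 1101 CPM, all below the 4 medium libraries. That small difference was called at a log2 fold change of -0.17 (SE 0.0603, edgeR adjusted p = 0.0356), and the call was lost without the 6 h medium library (-0.11, edgeR adjusted p = 0.164) and without the 12 h (-0.18, 0.0551) or 24 h (-0.14, 0.145) pulse library. Leaving out any 1 duration or the duration factor (adjusted p = 0.108) also ended it. An IFNγ pulse left 1197, 1096, 1212 and 1106 CPM, likewise below every medium library, with the same log2 fold change of -0.17 that did not pass the test (edgeR adjusted p = 0.151).

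Tyro3 (chr2:119797733-119818104, plus strand) encodes the TAM receptor best known from the nervous system. It had 27.6, 27.3, 25.6 and 27.9 CPM in medium then IFNγ, against 25.2, 19.9, 23.4 and 23.4 CPM in medium. The groups did not overlap, and Tyro3 rose by a log2 fold change of 0.24 (SE 0.0743, edgeR adjusted p = 0.0121). Without the 6 h medium library, the lowest of the 4, the log2 fold change was 0.18 and the call was lost (edgeR adjusted p = 0.0609), as in the fit of only the groups compared (adjusted p = 0.0668). After TGFβ the same addition of IFNγ gave 26.0, 24.8, 25.4 and 23.4 CPM, against 23.0, 21.7, 23.8 and 19.5 CPM after a TGFβ pulse, higher at all 4 durations and short of the threshold (log2 fold change 0.18, edgeR adjusted p = 0.0686). It was called without the 24 h library of TGFβ then IFNγ (0.21, edgeR adjusted p = 0.0415) or the 12 h library of TGFβ then medium (0.23, 0.029).

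Mertk (chr2:128698956-128802894, plus strand) encodes the receptor that macrophages and retinal pigment epithelium use to take up dying cells and shed photoreceptor segments. It was the TAM receptor that changed most, and it was lower wherever IFNγ was the second stimulus. Cells given medium then IFNγ had 4.84, 3.81, 5.07 and 3.50 CPM, against 12.3, 7.63, 10.4 and 11.5 CPM in medium. The groups did not overlap. The log2 fold change was -1.27 (SE 0.159, edgeR adjusted p = 1.25e-06), a 2.41-fold lower level. Each library or duration left out in turn gave a log2 fold change between -1.38 and -1.12, called every time. Gm14011, an antisense gene, and the snoRNA gene Gm23172 overlap Mertk, and the strand setting of the counting is not given in the sources used here.

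In cells first given TGFβ, IFNγ also went with less Mertk. TGFβ then IFNγ left 2.65, 2.19, 4.90 and 4.70 CPM of Mertk, against 13.3, 13.0, 16.7 and 16.1 CPM after TGFβ then medium. No library of the first group came near the second. The log2 fold change was -2.07 (SE 0.161, edgeR adjusted p = 1.73e-09), a 4.19-fold lower level. The difference between this and the fall after medium was -0.79 on the log2 scale, with an interval of -1.265 to -0.325. By duration it was -0.96, -1.53, -0.73 and -0.07 at 2, 6, 12 and 24 h, so nearly absent at 24 h. The difference did not pass the test (edgeR adjusted p = 0.131). DESeq2 called it (adjusted p = 0.0346), as did the edgeR fit without the 2 h medium library (adjusted p = 0.0382).

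TGFβ alone went with slightly more Mertk. The TGFβ pulse group, with the values just given, lay above all 4 medium libraries, at a log2 fold change of 0.50 (SE 0.144, edgeR adjusted p = 0.0112). As second stimulus TGFβ gave 10.2, 12.1, 18.0 and 16.1 CPM, which overlapped medium, at 0.42 (SE 0.144, edgeR adjusted p = 0.0381). Both calls were lost in the fit without the duration factor (edgeR adjusted p = 0.0928 for the pulse and 0.175 for the second stimulus). The fit of only the groups compared also lost both (edgeR adjusted p = 0.0594 and 0.202). The pulse call was lost too without the 12 h medium library (0.41, edgeR adjusted p = 0.0544). Leaving out all 6 h (0.41, 0.0858) or all 12 h (0.44, 0.0949) libraries also ended it. The call for the second stimulus was also lost without the 6, 12 or 24 h library of either group, at 0.33 to 0.43 (edgeR adjusted p = 0.0694 to 0.147). It was lost as well without all libraries of 6, 12 or 24 h, at 0.29 to 0.38 (edgeR adjusted p = 0.131 to 0.316). An IFNγ pulse left 11.0, 9.99, 12.4 and 12.9 CPM, close to medium. Its log2 fold change of 0.15 had an interval of -0.153 to 0.449, which does not reach the fall of 1.27 seen while IFNγ was present. With IFNγ first and TGFβ second Mertk had 11.8, 9.25, 14.5 and 11.9 CPM, and against it TGFβ then IFNγ was 3.34-fold lower (log2 fold change -1.74, edgeR adjusted p = 3.96e-08).

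The promoters of 2 genes that fell with IFNγ and of Axl, which was not called, are shown for comparison of their sequence. Each line gives the 250 bases before the RefSeq transcription start on GRCm38.p6, 5′ to 3′ on the gene's own strand, at chr2:128698665-128698914 (plus strand) for Mertk, chr16:62854057-62854306 (plus strand) for Pros1 and chr7:25788734-25788983 (minus strand) for Axl. Capitals mark a GAS element (TTCNNNGAA, an element of interferon gamma responsive promoters) or a GC box (GGGCGG), searched on both strands.
Mertk: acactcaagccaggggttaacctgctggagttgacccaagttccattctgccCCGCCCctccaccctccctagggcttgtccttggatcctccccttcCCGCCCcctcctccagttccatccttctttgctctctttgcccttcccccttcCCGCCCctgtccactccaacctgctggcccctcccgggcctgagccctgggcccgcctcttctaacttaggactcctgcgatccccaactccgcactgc
Pros1: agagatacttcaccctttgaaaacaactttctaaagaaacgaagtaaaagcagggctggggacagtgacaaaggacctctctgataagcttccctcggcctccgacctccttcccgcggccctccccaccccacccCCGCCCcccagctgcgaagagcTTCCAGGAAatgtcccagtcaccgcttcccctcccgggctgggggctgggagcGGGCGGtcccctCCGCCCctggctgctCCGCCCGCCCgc
Axl: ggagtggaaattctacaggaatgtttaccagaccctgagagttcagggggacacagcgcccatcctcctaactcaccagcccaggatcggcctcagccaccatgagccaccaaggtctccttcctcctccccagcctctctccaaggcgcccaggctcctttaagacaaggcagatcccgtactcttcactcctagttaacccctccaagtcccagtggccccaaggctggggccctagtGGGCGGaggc
Pros1 held 1 GAS element, TTCCAGGAA, 92 bases before the start, and 5 GC boxes, of which the last pair overlaps. Mertk held 3 GC boxes and Axl 1, and no GAS element was found in either window. A shortened interferon-stimulated response element core (GAAANNGAA), an AP-1 site (TGANTCA) and a Smad binding element (GTCTAGAC) were found in none of these windows. Among the 32851 RefSeq windows of this length, 7.02% held a GAS element, 7.13% the response element core, 6.75% an AP-1 site, 0.167% the Smad element and 32.7% a GC box. A match describes letters in this window and is not a measured site.

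Of the ligands, Pros1 was expressed and Gas6 was at the limit of detection. Gas6 (chr8:13465374-13494490, minus strand) had 42 counts in all 29 libraries together, 0 to 7 per library, and 12 libraries were at 0. All 4 libraries of medium then IFNγ were at 0, which allows up to 3 counts per library or 0.133 to 0.173 CPM over the libraries of the study. IFNγ then medium had 2, 3, 5 and 5 counts, and medium had 0, 7, 1 and 0 counts, the 7 in the 6 h library. IFNγ then TGFβ had 1, 0, 0 and 1 counts, below all 4 libraries of IFNγ then medium. TGFβ then IFNγ totalled 5 counts, medium then TGFβ 6 and TGFβ then medium 5. Gas6 was under the filter on low counts and was not tested. Gas6 also overlaps Tmem255b on the other strand. Ligand supplied by the serum in the medium is not measured by these counts.

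Pros1 (chr16:62854307-62929346, plus strand) encodes protein S, a plasma anticoagulant cofactor and TAM ligand. It had 13.9, 16.1, 14.4 and 13.7 CPM in medium then IFNγ, against 18.3, 30.1, 16.4 and 17.6 CPM in medium. The groups did not overlap, though the 6 h medium library was far above the rest. Pros1 fell by 0.49 on the log2 scale (SE 0.142, edgeR adjusted p = 0.0067). Without that library the log2 fold change was -0.27 and the call was lost (edgeR adjusted p = 0.0641). After TGFβ, IFNγ gave 15.0, 15.4, 21.4 and 21.3 CPM, against 20.7, 22.0, 24.5 and 23.2 CPM after TGFβ then medium, lower at all 4 durations without passing the test (log2 fold change -0.31, edgeR adjusted p = 0.084). It was called without the 12 h (-0.41, edgeR adjusted p = 0.0385) or 24 h (-0.40, 0.041) library of TGFβ then IFNγ, and in the fit of only the groups compared (-0.33, 0.0303). A TGFβ pulse was at 0.14 against medium with that library (edgeR adjusted p = 0.478) and rose by 0.37 without it (edgeR adjusted p = 0.0144).

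Megf10 (chr18:57133090-57297467, plus strand) moved more than any TAM gene. Medium then IFNγ left 6.26, 8.79, 4.21 and 4.56 CPM, against 45.8, 115, 38.3 and 37.7 CPM in medium. Every medium library was well above every IFNγ library. Megf10 fell by 3.26 on the log2 scale (SE 0.246, edgeR adjusted p = 1.02e-09), a 9.56-fold lower level. Without the 6 h medium library the log2 fold change was -2.81 and the call held (edgeR adjusted p = 6.9e-12). In bulk RNA, fewer cells that express a gene and less RNA per cell cannot be told apart.

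Counting Mertk, Tyro3, Pros1 and Megf10, 1 gene rose and 3 fell of the 5 tested when IFNγ was the second stimulus after medium. In that comparison 43.8% of all genes tested were called, 22.7% higher and 21.2% lower, so a call there is common. The log2 fold changes were -3.26 for Megf10 and -1.27 for Mertk, beside a median of -0.00962 over all genes tested. Without the 6 h medium library 2 genes were called (Mertk and Megf10, both lower). In that fit 39.1% of all genes were called, 20.4% higher and 18.7% lower. When IFNγ followed TGFβ, 0 rose and 2 fell (Mertk and Megf10), where 36.4% of genes were called, 17.6% lower. The plot of log2 fold changes gives each gene in 6 comparisons.

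**Figure D2:**
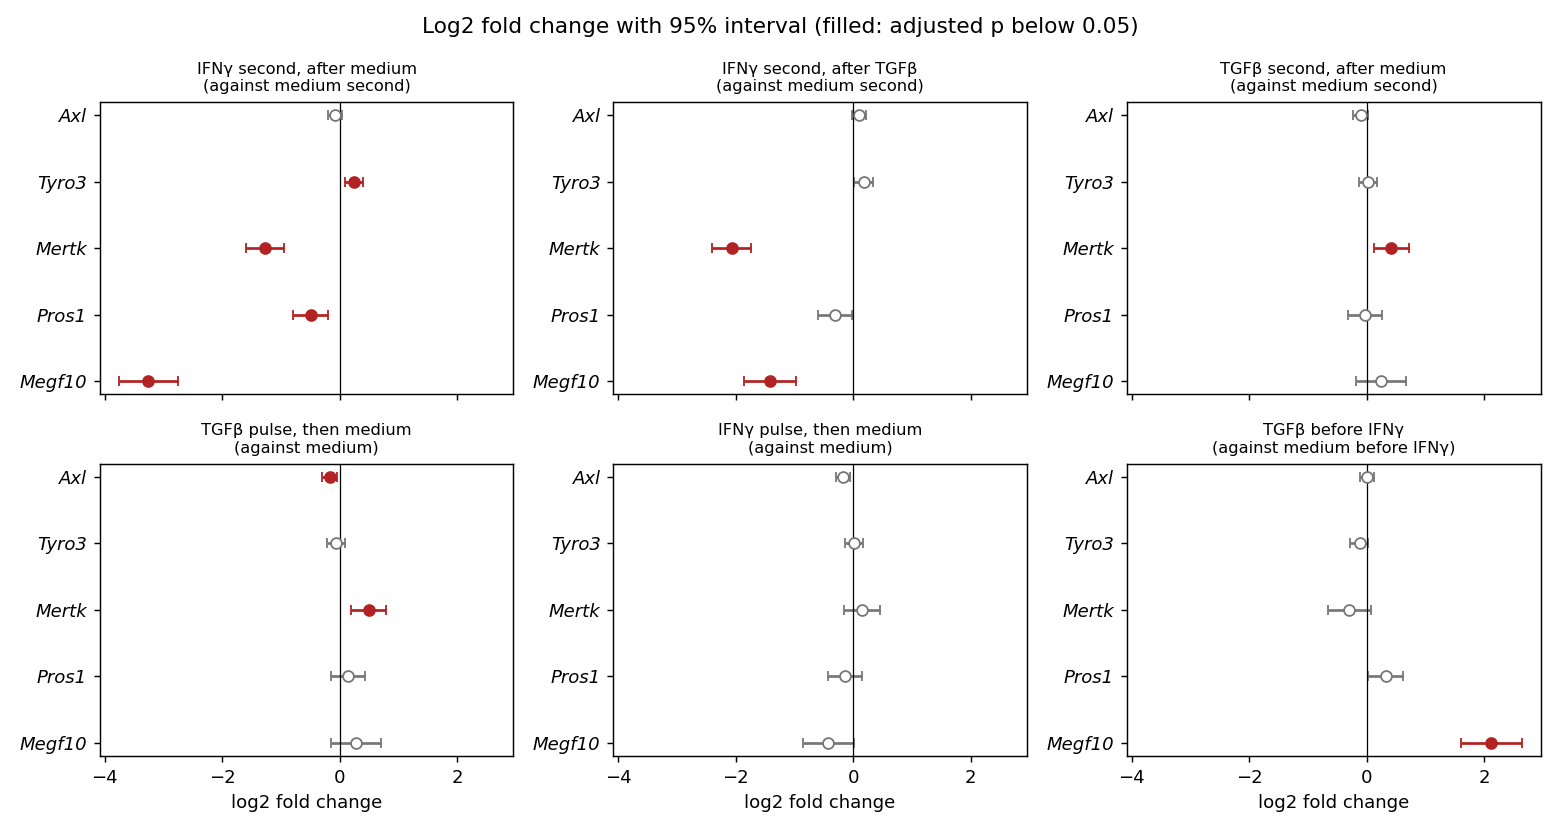
Log2 fold change (horizontal axis) of the 5 tested genes in 6 comparisons, with 95% intervals from the edgeR fit; filled points passed an adjusted p of 0.05. Megf10 lies at -3.26 for IFNγ after medium and at -1.41 for IFNγ after TGFβ, and at 2.12 for TGFβ before IFNγ; the intervals of Axl stay within -0.299 and 0.224.

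A first period of TGFβ went with a much smaller loss of Megf10 under IFNγ. TGFβ then IFNγ left 19.2, 27.1, 25.9 and 30.5 CPM, against the 4.21 to 8.79 CPM of medium then IFNγ. The groups did not overlap. The log2 fold change was 2.12 (SE 0.249, edgeR adjusted p = 1.81e-06), a 4.36-fold higher level, and Megf10 was the 1 of 5 genes called, where 15.8% of all genes were, 8.64% higher. Of the other 4, Pros1 was at 0.33 (edgeR adjusted p = 0.127), and was called without the 6 h library of TGFβ then IFNγ (0.44, edgeR adjusted p = 0.0446). Against TGFβ then medium, with 63.4, 73.4, 68.0 and 67.1 CPM, TGFβ then IFNγ was 2.66-fold lower (log2 fold change -1.41, SE 0.214, edgeR adjusted p = 2.39e-05).

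The difference between the 2 falls was tested as an interaction. Megf10 was 1.85 higher on the log2 scale than the sum of the separate effects (SE 0.323, higher at 4 of 4 durations, edgeR adjusted p = 0.00643), and it was the 1 of 5 genes called, where 0.395% of all genes were, 0.321% higher. Without the 6 h medium library the value was 1.40 and the call held (edgeR adjusted p = 0.000507). The call was lost in the fit of only the groups compared (1.84, edgeR adjusted p = 0.113), and when the 12 h libraries (adjusted p = 0.126) or the 24 h libraries (adjusted p = 0.0885) of all groups were left out. The plot of IFNγ after TGFβ or medium shows the libraries behind it.

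**Figure D3:**
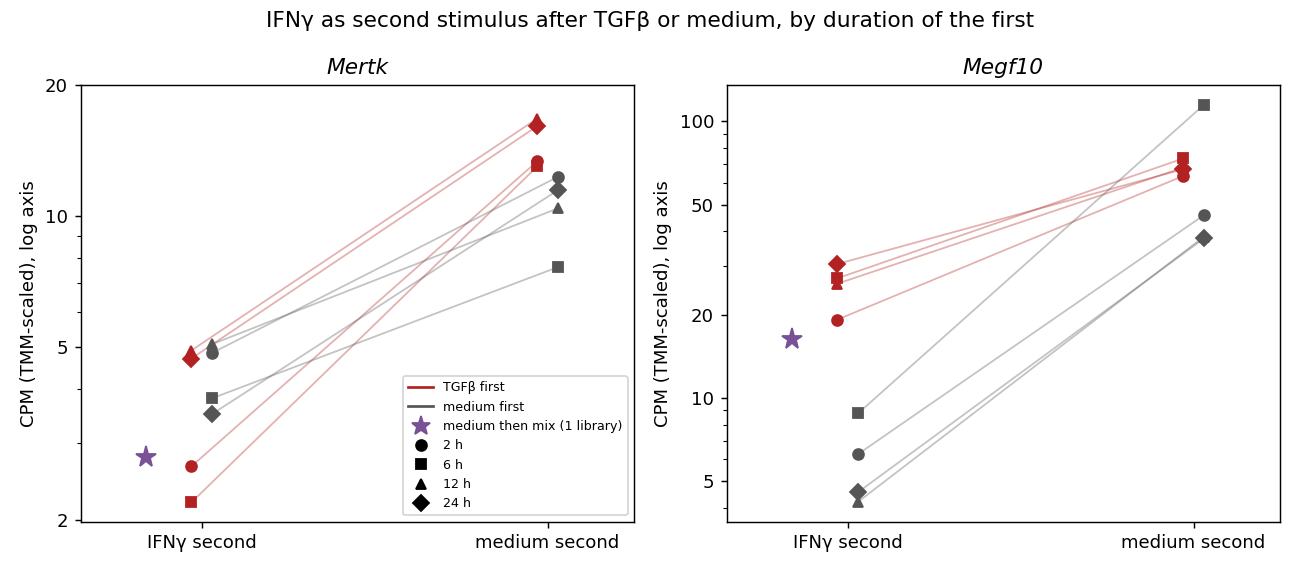
Mertk and Megf10 in TMM-scaled CPM on a log axis, with IFNγ (left) or medium (right) as second stimulus, after TGFβ (red) or medium (grey); lines join libraries with the same length of first period and the star is the single mix library. For Megf10 the IFNγ libraries lie at 19.2 to 30.5 CPM after TGFβ and at 4.21 to 8.79 CPM after medium; for Mertk they lie at 2.19 to 4.90 CPM and 3.50 to 5.07 CPM.

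TGFβ with no IFNγ after it left Megf10 above 3 of the 4 medium libraries. Medium then TGFβ had 64.6, 72.0, 63.3 and 66.8 CPM, and a TGFβ pulse had the values given above. Both groups overlapped medium only through the 6 h medium library, at 115 CPM. With that library the log2 fold changes of 0.25 for TGFβ second and 0.28 for the pulse were not called (edgeR adjusted p = 0.429 and 0.344). Without it they were 0.68 and 0.71, and both were called (edgeR adjusted p = 0.000711 and 0.000346). In the fit with all libraries 1 of the 5 genes was called for TGFβ as second stimulus (Mertk, higher), where 23.3% of all genes were called and 11.7% were higher. For the pulse 2 were called (Mertk higher, Axl lower), where 29% were called, 14.5% higher and 14.5% lower. With the 6 h medium library left out, Mertk, Pros1 and Megf10 were called for the pulse, all higher, and Axl was not. In that fit 26.7% of all genes were called, 13.5% higher and 13.2% lower. For TGFβ as second stimulus only Megf10 was then called, higher, where 21% of all genes were called, 10.4% higher.

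After IFNγ was washed off, Megf10 was near its level in most medium libraries. An IFNγ pulse had 43.7, 39.9, 39.6 and 43.2 CPM, within the range of medium without the 6 h library, at a log2 fold change of -0.42 (edgeR adjusted p = 0.331) with that library and 0.00 without it. By edgeR 0 of 5 genes were called after an IFNγ pulse, 1 (Axl) had an unadjusted p below 0.05, DESeq2 called 0, and 0.79% of all genes were called. IFNγ then TGFβ had 68.1, 64.1, 58.2 and 70.0 CPM, above all 4 libraries of the IFNγ pulse. That difference of 0.64 (SE 0.207) was higher at 4 of 4 durations and did not pass the test (edgeR adjusted p = 0.0617). It was called in the fit of only those groups (edgeR adjusted p = 3.76e-08) and without the filter on low counts (0.0243). Leaving out the 6 h libraries of all groups, among them the outlying medium library, also gave a call (0.63, edgeR adjusted p = 0.00364). By edgeR with all libraries 0 of 5 genes were called there and 1 had an unadjusted p below 0.05, DESeq2 called 0, and 7.26% of all genes were called.

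Mertk and Megf10 also differed between the orders of the cytokines. Megf10 in TGFβ then IFNγ was 2.56-fold lower than in IFNγ then TGFβ (log2 fold change -1.35, edgeR adjusted p = 4.99e-05). These were the 2 of 5 genes called between the orders, both lower, where 32.5% of genes were called, 16.2% lower. IFNγ before TGFβ, against medium before TGFβ, gave 0 of 5 calls by edgeR and by DESeq2, 0 at an unadjusted p below 0.05, and 0.0937% of all genes called. In the interaction of IFNγ first and TGFβ second 0 of 5 genes and 0% of all genes were called by edgeR, with 0 of the 5 and 1078 of all genes at an unadjusted p below 0.05, and DESeq2 called 0. The slope of each gene on the log2 length of the pulse, less its slope in medium, was called for 0 of 5 genes after TGFβ, where 0.00716% of all genes were called, and for 0 of 5 after IFNγ, where 0% were, with 0 of the 5 at an unadjusted p below 0.05 and 0 by DESeq2 in both. Without the 2 h medium library Megf10 and Pros1 were called in both trends. The shares of all genes above are those of the trend fit with all 28 libraries. The share in the fit without that library is not reported here. The medium series then began at the outlying 6 h library, with 115, 38.3 and 37.7 CPM of Megf10. For Pros1 it had 30.1, 16.4 and 17.6 CPM. The Megf10 libraries with pulses of 6 to 24 h had 39.6 to 43.2 CPM after IFNγ and 67.1 to 73.4 CPM after TGFβ. Those of Pros1 had 17.5 to 20.7 CPM and 22.0 to 24.5 CPM.

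Ordered by group mean, Megf10 was highest in the TGFβ pulse at 68.0 ± 4.1 CPM (SD, n = 4), then medium then TGFβ at 66.7 ± 3.85, IFNγ then TGFβ at 65.1 ± 5.2, medium at 59.1 ± 37.3 and the IFNγ pulse at 41.6 ± 2.18 CPM. Neighbours among these 5 overlapped in their libraries, medium and IFNγ then TGFβ only through the 6 h medium library at 115 CPM. The other medium libraries had 37.7 to 45.8 CPM, all below the mean of medium. TGFβ then IFNγ followed at 25.6 ± 4.73 CPM and medium then IFNγ at 5.95 ± 2.09 CPM, and neither overlapped a neighbour. The order for Mertk was the TGFβ pulse at 14.8 ± 1.9 CPM, medium then TGFβ at 14.1 ± 3.6, IFNγ then TGFβ at 11.9 ± 2.13, the IFNγ pulse at 11.6 ± 1.34, medium at 10.4 ± 2.03, medium then IFNγ at 4.30 ± 0.766 and TGFβ then IFNγ at 3.61 ± 1.39 CPM (SD, n = 4 each). The only gap without overlap between neighbours there lay between medium and medium then IFNγ.

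The single library given both cytokines at once has no replicate. Intervals cover counting error only, at 95% by the exact Poisson method. Mertk had 59 counts there, or 2.79 CPM (2.12 to 3.6), and the 24 h library of medium then IFNγ had 3.50 CPM (2.69 to 4.48). Megf10 had 345 counts, or 16.3 CPM (14.6 to 18.1), above the 4.56 CPM (3.63 to 5.66) of medium then IFNγ and below the 66.8 CPM (63.3 to 70.4) of medium then TGFβ, both at 24 h. Axl had 1201 CPM, Tyro3 25.1 CPM and Pros1 14.8 CPM, each inside the range of the other libraries.

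Other genes of phosphatidylserine-driven engulfment were described by list, with the median log2 fold change beside that of all genes. The lists were chosen with earlier results of these data known, and counts are of genes past the edgeR threshold. Over all genes tested, 22.7% rose and 21.2% fell when IFNγ followed medium, 17.6% fell when it followed TGFβ, and 14.5% went each way after a TGFβ pulse, and the list counts stand against those shares. A fit without the 6 h medium library, chosen after seeing the data, is given for each named gene of these lists whose call it ended or whose log2 fold change it moved by over 1.5 times. In that fit 20.4% of genes rose and 18.7% fell with IFNγ after medium. Among the relatives of Megf10, receptors with EGF repeats, 4 of 7 were tested, and all 4 fell when IFNγ followed medium (median -0.683, against -0.00962 over all genes). Pear1, a platelet receptor, was at -1.31 (SE 0.184, edgeR adjusted p = 5.61e-06), Megf9 at -0.87 and Scarf2 at -0.47. Without the 6 h medium library 3 of the 4 fell, Megf9 was no longer called (-0.53, edgeR adjusted p = 0.0519) and Scarf2 was at -0.31. After TGFβ the same 4 fell again with IFNγ (median -0.616, against -0.0077). After a TGFβ pulse Scarf2 was called lower (-0.30), and the call was lost without that library (-0.14, edgeR adjusted p = 0.261).

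Of the other phosphatidylserine receptors and bridging molecules, 4 of 15 tested rose and 5 fell with IFNγ after medium (median -0.103). Lgals3, a galactose-binding lectin, rose by 1.16, and Itgb5, a chain of the integrin that binds Mfge8, fell by 1.19 on the log2 scale. Lrp1, an endocytic receptor for calreticulin, fell by 0.79. After a TGFβ pulse 4 of 15 rose and 4 fell (median 0.041, against -2e-04), with Stab1 at 1.23 and Itgb3 at 1.11 higher and Lgals3 at -1.63 lower. Itgb3, a chain of the vitronectin receptor, was also higher when TGFβ preceded IFNγ (1.13, edgeR adjusted p = 3.53e-11).

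In the intracellular engulfment machinery 5 of 13 tested rose and 3 fell with IFNγ after medium (median 0.095). Gulp1, the mammalian counterpart of the worm adaptor CED-6, fell by 0.96, and Abca1, a lipid exporter, fell by 1.91. Elmo3, a Rac activator subunit, rose by 1.11 at a low level, with at most 27 counts in any library. Abca1 also fell after a TGFβ pulse (-1.49, edgeR adjusted p = 0.000933). Without the 6 h medium library Abca1 was at -1.35 with IFNγ and at -0.92 after the pulse, called in both. Phosphatidylserine exposure and its reversal showed 5 of 8 higher and 1 lower with IFNγ (median 0.186): the flippase Atp11b at 0.54, the scramblase Plscr1 at 0.51 and the flippase subunit Tmem30a at 0.27 higher, and Atp11a at -0.48 lower (-0.32 and called without the 6 h medium library). The list for vitamin K dependent carboxylation, which is wider than the enzymes that act on the ligands, showed 1 of 8 higher and 4 lower (median -0.371). Without that library 1 was higher and 2 were lower (median -0.233). Ggcx, the carboxylase that both ligands need, fell by 0.47 (edgeR adjusted p = 0.00023), and Prrg4 rose by 0.55.

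Among genes of receptor shedding, adaptors and feedback 4 of 11 rose and 1 fell with IFNγ after medium (median 0.075). The feedback inhibitors Socs1 and Socs3, known targets of both TAM and interferon signalling, rose by 2.21 and 2.06 on the log2 scale (edgeR adjusted p = 4.37e-10 and 9.79e-10). After a TGFβ pulse 0 of 11 rose and 6 fell (median -0.19, against -2e-04), among them Socs1 at -0.51 and Socs3 at -0.46. Of the 5 signals that restrain engulfment or killing, 2 rose and 1 fell with IFNγ (median 0.263): Cd274 rose by 3.70 and Cd47 by 0.84, and Cd24a fell by 0.48 (-0.24, edgeR adjusted p = 0.0488, without the 6 h medium library). A TGFβ pulse lowered 3 of the 5 (median -0.868), Cd274 by 1.90, B2m by 1.26 and Cd47 by 0.67. That median is the value of Sirpa, with at most 12 counts per library. The pulse libraries varied widely, with Cd274 at 6.6 ± 7.3 CPM and B2m at 720 ± 446 CPM (SD, n = 4). Slopes on the log2 length of the pulse, less those in medium, were -1.231 for Cd274, -0.592 for B2m and -0.306 for Cd47. None was called (edgeR adjusted p = 0.0701, 0.199 and 0.149).

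**Figure D4:**
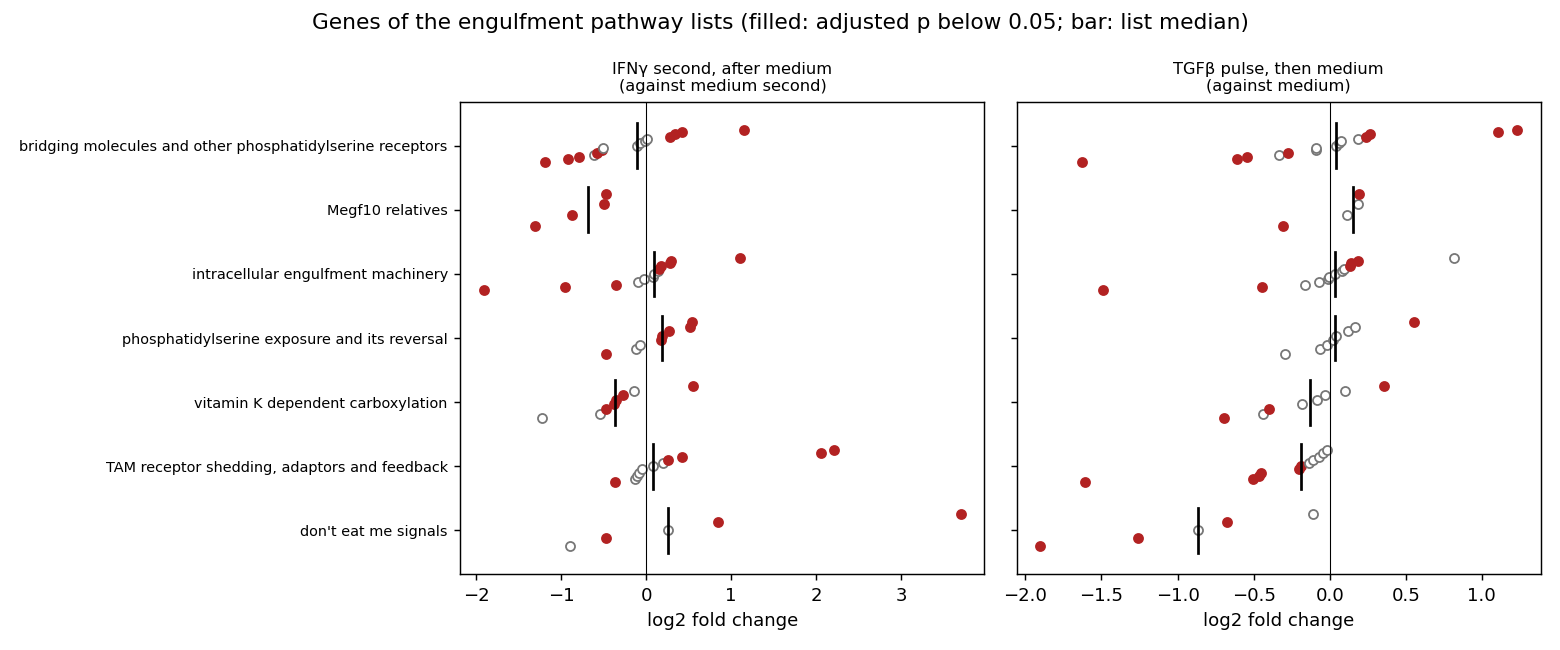
Log2 fold change (horizontal axis) of each tested gene of the engulfment lists when IFNγ followed medium (left) and after a TGFβ pulse (right); filled points passed an adjusted p of 0.05 by edgeR and bars mark list medians. All 4 relatives of Megf10 lie below 0 with IFNγ, with a median of -0.683; the widest single value is Cd274 at 3.70.

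Fibroblast markers were lower with IFNγ after medium, where Megf10 also fell, and both were highest in the 6 h medium library. Of 6 such genes, 5 were in the table and 4 were called lower with IFNγ after medium (median -1.44), and their summed level was 195 to 234 CPM in medium then IFNγ, against 577 to 1940 CPM in medium. Without the 6 h medium library 2 of the 5 were called lower, Col3a1 at -1.57 and Dcn at -1.54, and Pdgfrb (-0.36, edgeR adjusted p = 0.13) and Col1a1 (-1.16, edgeR adjusted p = 0.17) were not. Most of the sum was Col3a1, at 142 to 193 CPM and 481 to 1460 CPM in those groups, while Col1a1 had at most 0.751 CPM in any library. The sum was 149 to 201 CPM in TGFβ then IFNγ, against 195 to 234 CPM in medium then IFNγ, where Megf10 was 4.36-fold higher in TGFβ then IFNγ. In the mix library the sum was 131 CPM and Megf10 was at 16.3 CPM. The part of these markers in the fall of Megf10 after medium and in the 6 h medium library was not tested. Of the endothelial list Cdh5 rose after a TGFβ pulse (1.00), with Kdr at 1 count at most and Pecam1 at 5. The 7 measured leukocyte markers summed to 34.4 to 67.1 CPM in medium then IFNγ and 53 to 82.6 CPM in medium, with Cd14 at 17.1 to 76.4 CPM over all libraries.

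The genes most like each member were taken by the correlation of log2 CPM over the 29 libraries, as a description, among 9924 genes with a mean of at least 5 CPM; the libraries share groups and scaling. For Megf10 they were Prxl2c (r = 0.953), Col18a1 (0.953) and Dlx1 (0.951). For Mertk they included Igf2r (0.943) and Cyren (0.938). Pros1 was most like Golim4 (0.886), Col12a1 (0.871) and Pard6g (0.867), and Tyro3 most like 2210016F16Rik (0.836), Rnf121 (0.816) and Dll1 (0.804). Axl, which varied least, reached 0.71 with P4ha1, 0.697 with Ogdh and 0.696 with Syt12.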

How the data were processed

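RNA of 29 libraries of the NMM line was measured. The values are whole-number read counts for each Ensembl gene, which the authors deposited as 1 table without normalization. The submitters' processing notes name HISAT, with no version, and the build GRCm38. Which program counted the reads, on which annotation and with which strand setting is not given in the sources used here. Per the labels' protocols, the libraries were stranded mRNA libraries. All columns were matched to samples by name, and 0 were left over. Coordinates are those of the deposited table; exon lengths, strands and overlapping genes came from GENCODE M21, and promoters from RefSeq (GRCm38.p6), where 5 of the 6 genes had an entry.

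Tests used edgeR 4.0.16 in R 4.3.3. filterByExpr at a minimum count of 10 left 14935 genes, and TMM factors scaled the libraries. The filter goes by the smallest group, here the mix with 1 library, so the minimum had to be reached in only 1 library. Some genes tested therefore have low counts. The trend fits, without the mix, kept 13973 genes. The quasi-likelihood model held group and the duration of the first period as factors, over all 29 libraries (18 residual degrees of freedom), with Benjamini-Hochberg adjustment over all genes tested and a threshold of 0.05. Trends used 28 libraries, with an intercept and a slope against log2 duration for each group (14 residual degrees of freedom). SE values are the log2 fold change over the root of F. Alternatives were DESeq2 1.42.0, DESeq2 size factors, no filter, no duration factor, only the groups compared, and each library or duration left out. For the gene lists, the fit without the 6 h medium library was added after seeing the data. No libraries of 1 group agreed within sampling noise (lowest chi-square per degree of freedom 3.73).

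The numbers that could pair libraries are the durations in the labels. Within 1 duration, deviations of libraries from their group means had correlations of 0.106 to 0.288 for TGFβ before IFNγ, 0.138 to 0.333 for IFNγ before TGFβ, 0.192 to 0.398 for IFNγ after TGFβ and 0.218 to 0.401 for TGFβ after IFNγ. In the other comparisons at least 1 duration was at 0.1 or below. Members and gene lists were chosen with earlier results of these data known. Besides the members, up to 4 genes per list past the threshold with the largest change in a comparison, and the 3 genes most correlated with each member, are those that may be named. Values of some single genes of the lists are not reported here.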

Additional observations from a re-analysis of the deposited data

Results flagged for a closer look

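The medium library with a first period of 6 h was far from the other 3 medium libraries for Megf10 (115 CPM, against 37.7 to 45.8 CPM) and for Pros1 (30.1 CPM, against 16.4 to 18.3 CPM). Of 35 sets examined, each 1 gene in 1 group of 4 libraries, these 2 had such a library, and chance gives about 1 in 20. Both flags are the same library.

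The effect of IFNγ on Megf10 differed between cells first given TGFβ and cells first given medium, by 1.847 on the log2 scale (edgeR adjusted p = 0.00643).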

How the results depend on the processing

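Counts of members called were mostly unchanged: across the 13 comparisons and all alternatives, 204 counts stayed within 1.5 times of the reported one and 31 did not. In the interaction of TGFβ first and IFNγ second the count was 1, with 2 by DESeq2 and 0 in the fit of only the groups compared. For TGFβ against medium after IFNγ it was 0, with 1 in the fit of only the groups compared and 1 without the filter. For the TGFβ pulse it was 2, with 0 in the fit of only the groups compared; for TGFβ second it was 1, with 0 in that fit. Without the replicate block (the duration factor, which pairs libraries of 1 duration) it was 0 for the TGFβ pulse and 0 for TGFβ second, and the block changed no count of members by over 1.5 times elsewhere. Leaving out 1 library or duration gave 0 to 2 in both trends and in the interaction of TGFβ first and IFNγ second, 2 to 4 for IFNγ second and for IFNγ after TGFβ, 0 to 1 for TGFβ after IFNγ and for TGFβ second, 1 to 2 for TGFβ before IFNγ, and 0 to 3 for the TGFβ pulse. The fit of only the groups compared turned Pros1 for TGFβ second to 0.00 (-0.02 with all groups). Small uncalled log2 fold changes changed sign when 1 library or duration was left out. Axl ran from -0.14 to 0.00 for IFNγ second, -0.04 to 0.01 for TGFβ after IFNγ and -0.05 to 0.06 for TGFβ before IFNγ. Megf10 ran from -0.09 to 0.08 for IFNγ before TGFβ, -0.60 to 0.05 for the IFNγ pulse and -0.04 to 0.56 for the interaction of IFNγ first and TGFβ second. Mertk ran from -0.04 to 0.07 for TGFβ after IFNγ. Pros1 ran from -0.01 to 0.14 for IFNγ before TGFβ, -0.26 to 0.10 for the IFNγ pulse, -0.04 to 0.34 for the interaction of IFNγ first and TGFβ second, -0.05 to 0.29 for the interaction of TGFβ first and IFNγ second and -0.16 to 0.23 for TGFβ second. Tyro3 ran from -0.05 to 0.06 for the IFNγ pulse, -0.12 to 0.01 for the interaction of TGFβ first and IFNγ second, -0.13 to 0.00 for the TGFβ pulse, -0.04 to 0.08 for TGFβ second and -0.03 to 0.08 for the order. Depth limits Gas6, with at most 7 counts per library. The causes were not tested.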
